A study of Homo sapiens with 2 samples.

Results

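ANKRD30BL (ankyrin repeat domain 30B like) is a gene on chromosome 2 in which a group of short SNRPA1 irCLIP peaks lies close together. Its members were taken as all peaks assigned to this gene in the pooled peak list that gives each peak's height in tags, called the height list here, and all intervals of the CLIPper list, on either strand, in a window of 8000 nt of hg19 around those peaks. There were 10 such peaks among 1373 distinct intervals of the height list and 20 intervals among 7651 of the CLIPper list. The gene was selected on its number of peaks, the most of any gene in the height list, so the number and heights of its peaks are given as a description with no test.

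The libraries are 2 biological replicates of 1 group: MDA-231-LM2 cells, a subline of MDA-MB-231, a human breast cancer line, selected for its spread to the lung, with no treatment named in the labels and an antibody against endogenous SNRPA1. In irCLIP, RNA is crosslinked to bound proteins, pulled down with such an antibody, joined to a linker and sequenced. The lists do not keep the replicates apart, so no spread between them could be computed, the depth of each library is unknown, and no control library was analysed here. Intervals on tag numbers are exact Poisson intervals at the 95% level and cover counting error only.

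SNRPA1 is a subunit of the U2 snRNP, the spliceosomal particle that pairs with intron branch sites during splicing. Ribosomal RNA (rRNA) is the most abundant RNA of a cell and a common source of background reads in crosslinking experiments. The 18S, 5.8S and 28S rRNAs are cut, in that order from the 5′ end, from one precursor whose genes lie in repeated arrays, and the main chromosomes of the hg19 assembly leave those arrays out. Both lists held 0 intervals on unplaced contigs, and the handling of reads that match several places is not stated in the sources.

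The label of an rRNA-like sequence could be checked only through gene names. In the RefSeq gene table (assembly GRCh38.p14), ANKRD30BL contains 4 other genes. In the order of chromosome positions these are RNU6-1132P, a U6 snRNA pseudogene, RNA5-8SP5, a 5.8S rRNA pseudogene, an 18S rRNA pseudogene listed as LOC110467533 with the synonym RNA18SP, and the microRNA gene MIR663B. Read along the minus strand, the 18S copy therefore precedes the 5.8S copy, the order found in the rRNA precursor, and no 28S copy is listed inside the gene. The table is in another build than the peaks and gives no strand for these copies, so whether a peak lies on a copy was not tested. The height list assigned 0 peaks to any of the 4 genes inside ANKRD30BL. The mature miRNA of MIR663B is shown beside that of MIR663A, a microRNA gene of related name on another chromosome, because it is the only RNA inside ANKRD30BL whose sequence was at hand. Both are from RefSeq (GRCh38.p14), 5′ to 3′, 22 nt long, with the seed (bases 2 to 8) in capitals.
hsa-miR-663b: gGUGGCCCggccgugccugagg
hsa-miR-663a: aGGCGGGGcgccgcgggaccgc
The seeds differ, and neither MIR663B nor MIR663A had a peak in the height list.

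The 10 peaks lay on the minus strand between positions 133010726 and 133013174, a stretch of 2449 nt, and fell into a run of 9 and a lone peak. Read 5′ to 3′ along the minus strand, the first (133013141 to 133013174) was 14 tags high (7.65 to 23.5). The next, at 133012926 to 133012958, had 15 tags (8.40 to 24.7). The third, at 133012831 to 133012864, had 20 tags (12.2 to 30.9). The 5′ part of the run thus had 3 peaks of similar height, whose counting intervals overlap. The fourth peak (133012728 to 133012762) was lower, at 9 tags (4.12 to 17.1). The fifth (133012590 to 133012623) was the tallest of the gene, at 25 tags (16.2 to 36.9), and 39 intervals of the whole list were taller.

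The 3′ part of the run was lower apart from 1 peak. The sixth peak (133012313 to 133012346) had 11 tags (5.49 to 19.7) and the seventh (133012244 to 133012276) had 8 tags (3.45 to 15.8). The eighth (133012076 to 133012108) was higher, at 18 tags (10.7 to 28.4), and the ninth (133011936 to 133011967) was the lowest of all at 6 tags (2.20 to 13.1). After an empty stretch of 1177 nt came the lone peak at 133010726 to 133010758, with 7 tags (2.81 to 14.4). The intervals of the 6-, 7- and 8-tag peaks lie wholly below that of the 25-tag peak, and no neighbours in the order of heights differ beyond counting error.

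**Figure D1:**
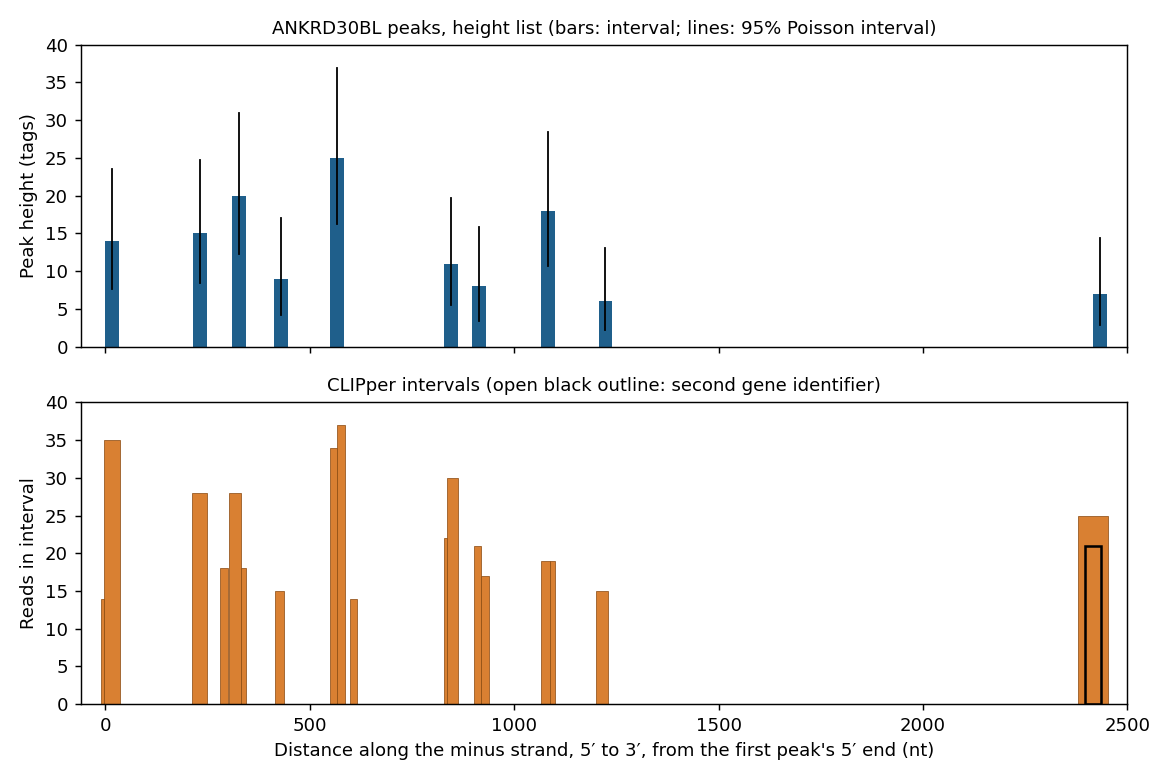
Top, height in tags of the 10 ANKRD30BL peaks against distance along the minus strand from the 5′ end of the first peak (nt), with bars as wide as the interval and lines for the 95% Poisson interval. Bottom, reads of the CLIPper intervals on the same axis, without the 3-read interval that lies 5′ of the plotted range: 9 peaks and 17 intervals lie in the 1240 nt at the left, and the lone site at the right carries an interval of a second gene identifier (open outline).

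The median height of the members was 12.5 tags, against 4 tags over the whole list, and 6 of the 10 (60%) reached 10 tags, against 140 of all 1373 intervals (10.2%). Together they held 133 of 11999 summed tags (1.11%) on 0.728% of the intervals. By summed height ANKRD30BL ranked 9 among 1286 genes, and by its tallest peak 38, so its place came from the number of peaks more than from any one of them. The P that the authors deposited was at the list's lowest value, 1e-100, for 7 of the members and for 265 of the 1373 intervals (19.3%). The remaining members had a P of 2.21e-07 (8 tags), 2.95e-05 (the lone peak of 7 tags) and 0.00333 (6 tags).

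Spacing within the run was irregular. Neighbouring centres of its 9 peaks were 69.5 to 277 nt apart, with a median of 139.5 nt and a mean of 150.8 nt (SD 68.4 over 8 distances). The peaks themselves were 32 to 35 nt wide, close to the median width of 33 nt in the whole list, and covered 302 of the 1239 nt of the run (24.4%). The run was therefore a series of separate short peaks with uncalled sequence between them. Over the full 2449 nt, 13.7% was covered.

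The CLIPper list showed the same run and the same lone site, in finer pieces. Of its 20 intervals, 17 lay in the run, from 133011945 to 133013184, and covered 353 of 1240 nt (28.5%). They were 6 to 41 nt wide, and 6 of the 16 neighbouring pairs touched end to end, so that a height-list peak often held a pair of them. Summits of neighbouring intervals in the run were 15 to 227 nt apart, with a median of 40.5 nt. Joined at gaps of up to 50 nt, the 17 intervals formed 7 groups.

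Read numbers in the region were above those of most of the list. They ran from 3 to 37 with a median of 20, against a median of 5 over all 7651 intervals, and 19 of the 20 had 10 or more reads, against 17.7% of the list. The highest, with 37 reads, lay at 133012589 to 133012606 under the 25-tag peak. The next, with 35 reads, lay at 133013138 to 133013178 under the 14-tag peak at the 5′ end. The third, with 34 reads, was at 133012607 to 133012624 and touched the first. The p deposited by the authors was under 1e-10 for 18 of the 20 and for 12.4% of the list. Touching intervals can share reads, so reads were not summed over the region.

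The lone site carried 2 CLIPper intervals. The wider, at 133010723 to 133010794, had 25 reads under the identifier ENSG00000163046.11, which 19 of the 20 intervals in the region bear and which is read as ANKRD30BL through these shared sites. The narrower, at 133010740 to 133010778, lay inside it with 21 reads under ENSG00000202174.1, a gene that the tables used here do not name. This was the only member peak under 2 identifiers. In the whole height list 89 of 1335 peaks with a CLIPper interval (6.67%) lay under intervals of 2 or more identifiers.

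The last interval of the region stood apart. It lay at 133015499 to 133015533, 2314 nt on the 5′ side of the run, with 3 reads, the lowest number in the list, and a p of 0.0267. Just outside the region, the nearest interval on the lower side was at 132980403 to 132980435 under the ANKRD30BL identifier, with 5 reads, 30287 nt from the lone site. On the upper side it was at 133196147 to 133196185, on the plus strand, with 15 reads under another identifier, 180613 nt from the 3-read interval. Signal listed for this gene was thus concentrated in the run and the lone site, and the choice of borders did not divide it.

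Counting a shared base on one strand as overlap, all 10 peaks (100%, Clopper-Pearson interval 69.2 to 100) lay on a CLIPper interval, 6 of them on 2 intervals and 4 of them on 1. In the whole height list 1335 of 1373 peaks did so, and the full overlap of the members is thus near the share of the list. Conversely, 16 of the 20 intervals of the region (80%, 56.3 to 94.3) lay on a member peak. The binomial limits treat the pieces as independent, which those that touch end to end are not. The 4 without one were the distant 3-read interval and 3 small pieces of the run, with 14, 14 and 18 reads, each within 12 nt of an interval that did overlap. Both lists were made from the same libraries, so the overlap is no sign of replication.

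The CLIPper reads at the members exceeded the height in tags by a median factor of 2.18, set beside 1.67 (quartiles 1.25 to 2.25) at 1325 other shared peaks. The lone peak had the highest factor, 3.57 (25 reads, 7 tags), and the 18-tag peak the lowest, 1.06 (19 reads). The factor was above the upper quartile of the other peaks at 5 of the 10 members. Across the members, which share libraries and depth, tags and highest reads correlated with a rho (Spearman) of 0.598 over 10 peaks, and with an r (Pearson, log10 values) of 0.622, given as a description. The height list is named as built from unique tags, whereas the treatment of repeated reads in the CLIPper list is not stated, so tags and reads may be unlike counts.

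**Figure D2:**
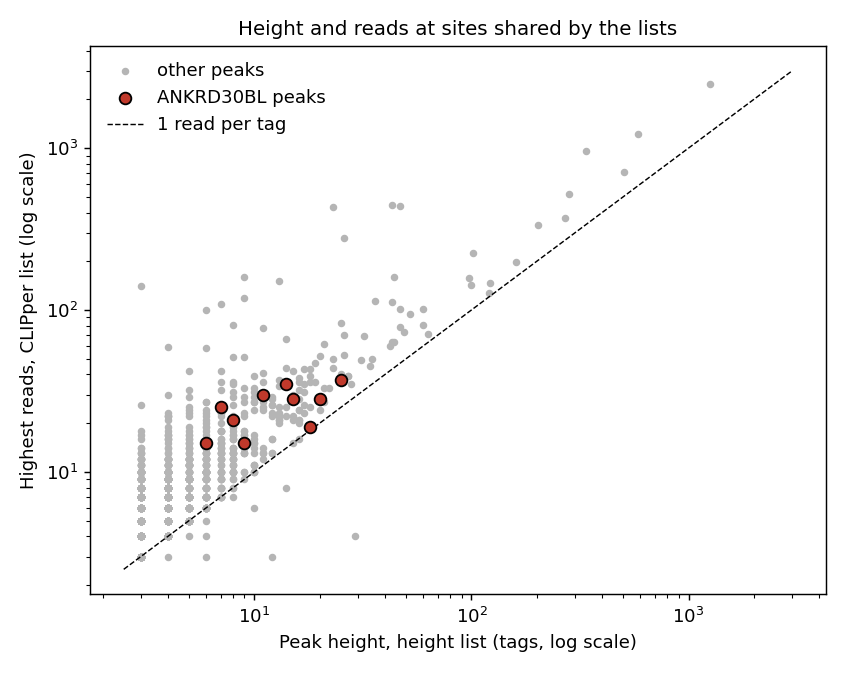
Height in tags (x axis, log scale) against the highest reads of an overlapping CLIPper interval (y axis, log scale) for each peak that both lists share, with the 10 ANKRD30BL peaks in red and the line of 1 read per tag dashed. The red points lie between 6 and 25 tags and 15 and 37 reads, all above the line and inside the cloud of other peaks.

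All 30 members were on the minus strand, the strand of ANKRD30BL in RefSeq, which is a property that both lists share throughout. In the height list 1161 of 1164 assignments to genes with a known strand (99.7%) were on the strand of the gene, and each of the 1783 CLIPper identifiers with 2 or more entries used 1 strand. Peaks on the strand opposite to a gene were therefore nearly absent from the lists as a whole, and the 0 plus-strand intervals in the region could not be told apart from that property.

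Among the 20 genes with 3 or more peaks in the height list, ANKRD30BL combined many peaks with a short span. Its density was 4.08 peaks per kb from first to last peak, which ranked 5. The 4 denser genes had 3 peaks each within 126 to 253 nt. These were LINC00910, a long noncoding RNA gene (23 to 505 tags), SLCO5A1, a gene of the organic anion transporter family (4 to 18 tags), PID1, which encodes a phosphotyrosine interaction domain protein (5 to 21 tags), and HFM1, which encodes a meiotic DNA helicase (11 to 21 tags). The other 15 genes spread their peaks over more than 10 kb, among them MACROD2, with 5 peaks over 645561 nt, and WWOX, with 4 over 328933 nt. In any window of 2500 nt no other of these genes had more than 3 peaks, against 10 in ANKRD30BL. The window was wider than the 2449 nt of its peaks, and the gene was selected on its number of peaks. Its first place by this measure was therefore fixed in advance. LINC00910 contains a copy of the U2 snRNA gene in the RefSeq table, while ANKRD30BL, SLCO5A1, PID1 and HFM1 contain none.

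Among CLIPper clusters, formed by joining intervals on one strand at gaps of up to 500 nt, the run of 17 tied for second place behind the 21 intervals in WDR74. Of 6352 clusters 83.5% were single intervals and 19 had 6 or more. The cluster that shared its 17 intervals lay in RUBCNL and was unlike the ANKRD30BL run in shape, spanning 147 nt with up to 962 reads and 93.2% of the span covered. The run spanned 1240 nt with at most 37 reads. Of the 19 clusters 14 spanned under 300 nt, with an interval every 7.67 to 45.5 nt, and 9 of those had an interval above 100 reads. The remaining 5, the run included, spanned over 500 nt with an interval every 72.9 to 161 nt, covered 17.8% to 35.6% of their span and had at most 62 reads.

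The clusters most like the run by number of intervals and span lay on the mitochondrial genome and in HFM1. On the mitochondrial genome, 16 intervals from positions 614 to 3187 spanned 2574 nt, with up to 27 reads and a median of 9.5, and 7 intervals spanned 773 nt with up to 8 reads. The CLIPper list had 48 intervals on that genome in all, and the height list had 0. Whether these intervals lie on the mitochondrial rRNA genes was not tested. In HFM1, 7 intervals from 91852809 to 91853496 of chromosome 1 spanned 688 nt, with up to 62 reads. The fifth cluster of this kind, on chromosome 3 from 186504530 to 186505140, had 6 intervals of up to 6 reads, and no height-list peak gives it a gene name.

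**Figure D3:**
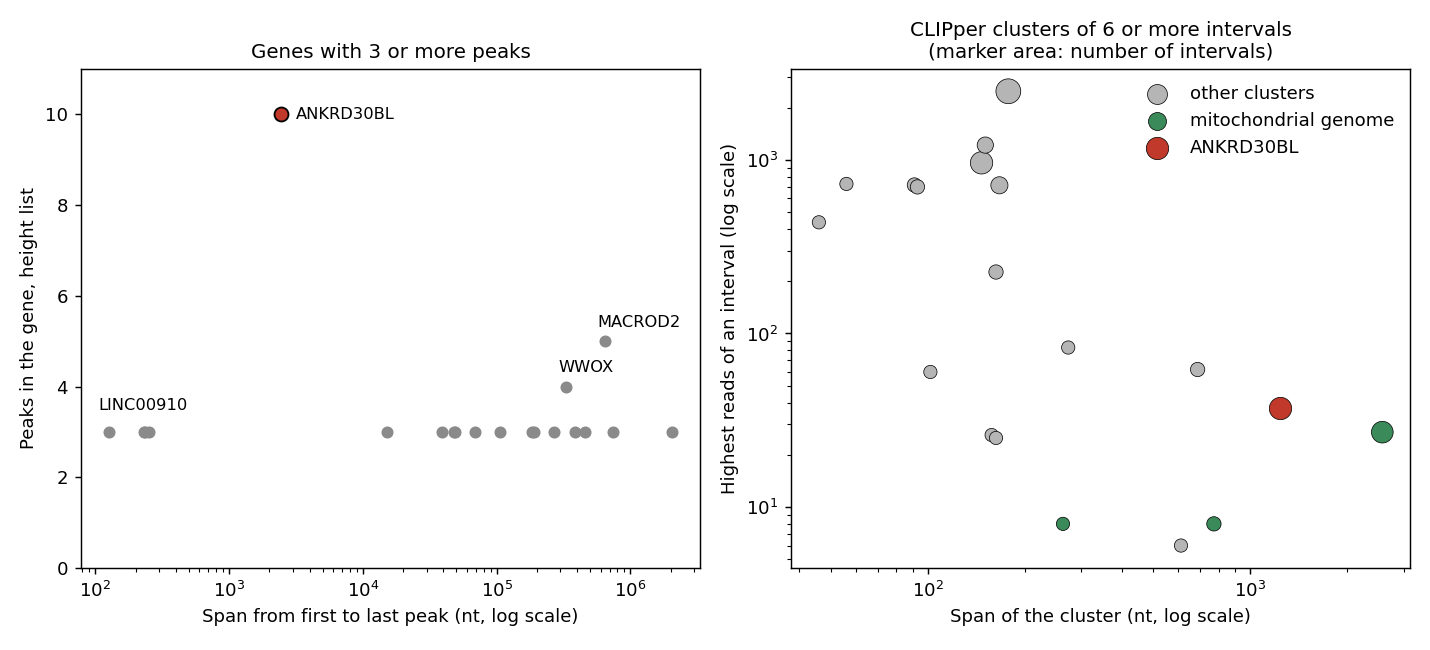
Left, number of height-list peaks against the span from first to last peak (nt, log scale) for the 20 genes with 3 or more peaks, with ANKRD30BL in red at 10 peaks and 2449 nt. Right, highest reads of an interval against span (both log scales) for the 19 CLIPper clusters of 6 or more intervals, marker area giving the number of intervals: the ANKRD30BL run (red) and the largest mitochondrial cluster (green) are long and low, whereas the narrow clusters reach the highest reads.

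Other copies of rRNA genes were looked up by name in the height list. The RefSeq table held 52 genes and pseudogenes of the 45S precursor and of the 18S, 5.8S and 28S rRNAs, and 0 of them had a peak assigned in the height list. Of the 53 genes of a list related to rRNA, 51 were in the table and 0 had a peak in the height list. Among the 53 were the mitochondrial genes MT-RNR1 and MT-RNR2, and the height list had 0 intervals on the mitochondrial genome. The gene annotation used for the height list is not stated, and a gene missing from it could be assigned no peak. The share of all genes in the RefSeq table that had a peak is not given, so the counts by name are a description only. Leaving out rRNA genes and loci without a gene symbol of their own, 4 genes contained such a copy, and ANKRD30BL and CTNNAL1 had peaks. CEACAM21 and TEX101, each with a 28S pseudogene, had 0. ANKRD30BL was selected on its number of peaks, so its place among the genes with peaks was fixed in advance.

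CTNNAL1, which encodes an alpha-catenin-like protein, contains the 5.8S pseudogene RNA5-8SP3. It had 2 peaks on the minus strand of chromosome 9, one at 111754700 to 111754728 with 8 tags (3.45 to 15.8) and one at 111754784 to 111754816 with 16 tags (9.15 to 26.0). Their centres were 86 nt apart. The CLIPper list had 5 intervals there, of 10 to 16 reads, and 2 of the 5 were under a second identifier, ENSG00000201227.1. These lay on the 16-tag peak and not on the 8-tag peak. The lone site of ANKRD30BL was also under 2 identifiers. So many or more were found at 6.67% of all height-list peaks with a CLIPper interval, so this marks no particular likeness. The counting intervals of both CTNNAL1 peaks overlap that of the 7-tag lone peak in ANKRD30BL (2.81 to 14.4). That of the lone peak also holds the list median of 4 tags, so the overlap marks no particular likeness. Whether either site lies on the 5.8S copy, and whether the reads came from rRNA, from the host transcripts or from contacts of SNRPA1, was not tested, for lack of an hg19 sequence, a control library and separate replicates.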

How the data were processed

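The 2 biological replicates of SNRPA1 irCLIP were represented by 2 peak lists of the whole series. The submitters' processing notes name hg19 as the build, and BWA 0.7 and cutadapt 1.10 as tools. In one list the authors deposited for each interval a p-value of at most 0.0499, with an Ensembl identifier and reads in the name; the caller was CLIPper, per its file name. In the other they deposited a signal, the height of each peak in tags, with an Entrez gene and a P, from pooled unique tags per its file name. The caller of this list is not stated.

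Repeated entries of an interval were counted once (8053 to 7651 and 1454 to 1373). Entrez identifiers were named through the RefSeq table of GRCh38.p14 (1278 of 1286 genes), used for names and for which genes contain one another. Genes named were ANKRD30BL, genes with 3 or more peaks, the densest CLIPper clusters and a list related to rRNA. The members and lists were chosen with earlier results of these data known. Genes that contain rRNA copies, PDE3A, LINC00486, RUVBL1 and GREB1 were chosen after their values were seen. No test was run. Joining and overlap were tested on simulated intervals. Alternatives covered p thresholds, joining, overlap and cluster gaps. Depth is unknown, so precision beyond counting error cannot be given. Calculations used scipy 1.17.1, pandas 2.3.3 and numpy 2.4.6 under Python 3.11.15, and plots matplotlib 3.10.9.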

Additional observations from a re-analysis of the deposited data

How the results depend on the processing

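Of 20 alternatives, 15 left the value within 1.5 times for a count or within the spread of the members or the binomial interval for other values, and 5 moved it. Joined at gaps of up to 50 nt, the 20 CLIPper intervals of the region became 9, and the median distance between interval centres in the run (not summits) went from 44.2 to 178 nt, by construction. The rank of ANKRD30BL by peaks per kb was 5 among 20 genes, 9 among the 138 genes with 2 or more peaks, and 1 by the most peaks in any 2500 nt. That last rank was fixed by the selection on number of peaks and by a window wider than the stretch they span. With clusters joined at gaps of up to 100 nt in place of 500 nt, the run of 17 broke into 6 groups, of which the largest held 5 intervals and the one at the tallest peak 3. Under a P below 1e-5 there were 8 member peaks. No paired analysis was possible because both samples belong to 1 group. Results without each replicate could not be computed, since neither list separates them. The unknown depth limits every count.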

Other observations

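The 5S rRNA, which is transcribed apart from the 45S precursor, was looked at by gene name only. The RefSeq table held 527 5S genes and pseudogenes, with 0 peaks assigned to them, and 56 genes that contain a 5S copy had a peak. The total of genes that contain a 5S copy and the share of all genes with a peak are not given. These counts are therefore a description only. The median of their tallest peak was 4 tags, the same as the median of the whole list. Of the 56, 48 had a single peak, against 1148 of all 1286 genes (89.3%). In 3 of them the tallest peak reached 20 tags, a height reached by 3.79% of all peaks in the list. The values of the list count every peak, whereas those of the 56 genes take only the tallest of each. The medians and these shares are therefore unlike measures. Whether these peaks lie on the 5S copies was not tested. The tallest was GREB1 at 122 tags, which also contains a U2 snRNA copy, followed by CSMD1 at 27 and ITPR2 at 23 tags.

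With genes of 2 peaks included, 4 more genes were packed more densely than ANKRD30BL. They were CTNNAL1, described above, RUVBL1, which contains a U2 snRNA copy and had 2 peaks of 44 and 586 tags within 117 nt, PDE3A, a phosphodiesterase gene with 2 peaks of 11 and 43 tags within 104 nt of chromosome 12 (20704389 to 20704492, plus strand), and LINC00486, a long noncoding RNA gene with 2 peaks of 8 and 25 tags within 198 nt of chromosome 2. As background, public lists of hg19 regions with excess read signal are known to name stretches like the small-subunit rRNA in ANKRD30BL and PDE3A and stretches like the large-subunit rRNA in HFM1, PID1 and SLCO5A1. Those lists were not used here, and whether the peaks of these 5 genes lie on such stretches was not tested.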
